A study of Mus musculus with 2 samples.

Results

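Lhx1, Onecut1, Onecut2, Onecut3, Prox1 and Calb1 are genes by which horizontal cells of the retina are recognised. They were taken by gene symbol, with 1 row each, and make up 6 of the 32227 genes counted. Their transcripts were measured by single-nucleus RNA-seq in whole retinas of mice at postnatal day 21, in 1 library of Cre− control animals with 7357 nuclei and 11510585 unique transcripts (UMIs) and 1 library of Tet tcKO animals with 6766 nuclei and 16590747 UMIs. The Tet tcKO animals were homozygous for loxP alleles of Tet1, Tet2 and Tet3, the enzymes that oxidise methylated cytosine. They carried Chx10-Cre-GFP, a transgene expressed in retinal progenitor cells. Its expression can be mosaic, and the authors crossed Cre-positive animals with each other to reduce this. The control animals were labelled wild type and C57 BL/6J and lacked the Cre transgene. Retinas were pooled for each genotype, and no label ties a nucleus to an animal or a pool, so that each genotype counted as 1 sample. Nuclei had a median of 1107 UMIs in the Cre− library and 1836.5 in the Tet tcKO library, and the libraries shared 1 barcode.

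Horizontal cells are inhibitory interneurons whose processes contact photoreceptor terminals in the outer plexiform layer and feed back onto them. Their precursors leave the progenitor pool under factors of the forkhead and bHLH families, and the Onecut factors, Prox1 and Lhx1 act in the steps that follow, from the choice of fate to the position of the cell in its layer. Calb1 encodes calbindin, a calcium-buffering protein with EF-hand motifs that is the usual stain for these cells in the mouse.

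The horizontal class of the authors' annotation was the whole of cluster 18 in both libraries. It held 90 nuclei of the Cre− library, 1.22% (exact 95% interval 0.985 to 1.5) of all nuclei, and 37 nuclei of the Tet tcKO library, 0.547% (0.385 to 0.753). In transcripts the class made up 1.38% of the Cre− UMIs and 0.669% of the Tet tcKO UMIs, with 158316 and 111025 UMIs. A horizontal nucleus had a median of 1502 UMIs in the Cre− library and 2492 in the Tet tcKO library. The label was checked with 7 horizontal cell genes outside the 6 (Gja10, Septin4, Megf11, Slc4a3, C1ql1, Sall3 and Tfap2b). Their summed level in the horizontal class was 8281 counts per 1000000 UMIs (CPM) in the Cre− and 7233 CPM in the Tet tcKO library. Over the other annotated classes it was 286 to 1241 CPM. Each of the 7 had a UMI in horizontal nuclei of both libraries, as also in Cre− rods, Cre− bipolar and Tet tcKO amacrine nuclei. In horizontal nuclei 4 of the 7 reached 100 CPM in a library, and Slc4a3 alone made up most of the Cre− sum. Lhx1 led all genes by fold over the other nuclei in this cluster in both libraries. The annotation may have used some of the 6 genes, so their levels by class are a description, and no test was made.

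Levels below are CPM of a class in a library, from UMIs summed over its nuclei, with exact 95% Poisson intervals in brackets. Ratios are log2 of the Tet tcKO over the Cre− level with an exact 95% conditional interval. All intervals cover counting error only and say nothing of animals or preparations. With 1 library per genotype no difference between genotypes has a replicate check.

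Lhx1, a LIM-homeodomain factor that sets the laminar position of horizontal cells, lies at chr11:84408803-84416368 on the minus strand (GRCm39). It was the gene most concentrated in horizontal nuclei. Its level there was 240.0 CPM (169.9 to 329) from 38 UMIs in the Cre− library and 324 CPM (227 to 449) from 36 UMIs in the Tet tcKO library. Over all other nuclei it was 2.91 CPM from 33 UMIs and 1.21 CPM from 20 UMIs, so that the horizontal level was 82.6-fold (50.4 to 136) and 267-fold (151 to 487) higher. Horizontal nuclei held 53.5% of the Lhx1 UMIs of the Cre− library and 64.3% of those of the Tet tcKO library. Among the other classes the highest level was 3.56 CPM (2.35 to 5.19), in Cre− rods and cones, and Müller glia had no UMI in either library, which at 3 counts allows up to 13.5 and 20.1 CPM. The amacrine class had 0 UMIs in the Cre− and 5 in the Tet tcKO library, and the retinal ganglion cell (RGC) class 1 and 0. The levels of the non-horizontal classes had overlapping intervals within the Cre− library and within the Tet tcKO library.

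The gene lies wholly within Lhx1os, a long noncoding RNA of the opposite strand. Lhx1os had 62 UMIs in the Cre− and 50 in the Tet tcKO library, and in horizontal nuclei 15 UMIs (94.7 CPM) and 23 UMIs (207 CPM). The sources used here do not give whether the counting used strand. Some reads of Lhx1 may thus have been counted for Lhx1os or the reverse, and how many is not known.

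Because TET enzymes act at cytosines followed by guanine, the 250 bases before the RefSeq start of the most horizontal-restricted gene, Lhx1, and of the most widely detected, Prox1, are shown with every CG in capitals (GRCm38.p6, 5′ to 3′ on the gene's strand). Windows were found for 3 of the 6 genes, and Prox1 had a pair of starts, of which the upstream one is shown. The window of the other Prox1 start held 11 CGs, reached by 35.6% of all windows. The Onecut1 window, with 31 CGs (5.19%), is not shown because its last letters are those of a start codon, so that it may lie within the transcript. The Lhx1 window is chr11:84525535-84525784 and the Prox1 window chr1:190170828-190171077, both on the minus strand.
Lhx1: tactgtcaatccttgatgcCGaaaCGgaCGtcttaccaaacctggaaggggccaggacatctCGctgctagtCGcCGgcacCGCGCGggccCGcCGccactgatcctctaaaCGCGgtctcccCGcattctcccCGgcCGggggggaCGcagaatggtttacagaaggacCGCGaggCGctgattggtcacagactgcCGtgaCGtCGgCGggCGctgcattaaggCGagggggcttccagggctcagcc
Prox1: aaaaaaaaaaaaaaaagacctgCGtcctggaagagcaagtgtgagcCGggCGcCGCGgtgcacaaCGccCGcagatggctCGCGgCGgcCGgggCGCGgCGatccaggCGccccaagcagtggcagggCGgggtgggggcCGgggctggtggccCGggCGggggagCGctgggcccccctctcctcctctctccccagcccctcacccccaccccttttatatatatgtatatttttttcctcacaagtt
The Lhx1 window held 26 CGs, a number reached by 9.59% of 32851 windows of the same length, and the Prox1 window 20, reached by 17.9%. The median window held 6 CGs. Methylation was not measured in these libraries.

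The 3 Onecut genes encode factors with a cut domain and a homeodomain. Onecut1 and Onecut2 are known for the genesis of horizontal cells and are also made by RGCs. Onecut1 (chr9:74769118-74800594, plus strand, GRCm39) reached 411 CPM (317 to 523) from 65 UMIs in the horizontal nuclei of the control and 450.3 CPM (334 to 594) from 50 UMIs in those of the mutant. RGCs came next, with 41.5 CPM (30.9 to 54.5) in the Cre− and 49.7 CPM (40.7 to 60.1) in the Tet tcKO library. The horizontal level was thus 9.90-fold (6.76 to 14.6) and 9.06-fold (6.34 to 12.8) above that of RGCs. In amacrine, bipolar and photoreceptor nuclei Onecut1 stayed between 6.48 and 9.45 CPM in both libraries, with overlapping intervals. Müller glia had 4 UMIs, 18 CPM (4.91 to 46.1), in the Cre− and 0 in the Tet tcKO library.

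Onecut2, on chromosome 18, was also highest in horizontal nuclei, with RGCs next. Its level in horizontal nuclei was 448 CPM (350.3 to 566) in the Cre− and 459 CPM (342 to 604) in the Tet tcKO library, from 71 and 51 UMIs. RGCs had 56.1 CPM (43.6 to 71.0) and 42.2 CPM (33.9 to 51.9), the former with an interval that overlapped that of amacrine nuclei. Onecut2 transcripts were thus found in RGC nuclei at 8.0-fold (5.66 to 11.3) and 10.9-fold (7.57 to 15.5) below the horizontal level. Amacrine, bipolar and photoreceptor nuclei ranged from 24.9 to 30.4 CPM in the Cre− and from 19.7 to 20.7 CPM in the Tet tcKO library, and their intervals overlapped within each library.

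Onecut3 (chr10:80330669-80353110, plus strand, GRCm39), the third of the family, shared the narrow pattern of Lhx1 rather than the RGC signal of its relatives. It reached 234 CPM (165 to 322) from 37 UMIs in Cre− and 225 CPM (146 to 332) from 25 UMIs in Tet tcKO horizontal nuclei. In RGCs only 2 and 7 UMIs were counted, 1.63 CPM (0.197 to 5.87) and 3.28 CPM (1.32 to 6.76). The next class was bipolar in the Cre− library with 10.8 CPM (6.48 to 16.8), but 10 of those 19 UMIs came from 1 nucleus with 5989 UMIs in all, which had no UMI of Lhx1, Onecut1, Onecut2 or Calb1 and 1 of Prox1. In the Tet tcKO library bipolar nuclei had 11 UMIs of Onecut3 in 11 nuclei, 2.47 CPM (1.24 to 4.43).

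Prox1 (chr1:189850232-189904637, minus strand, GRCm39) encodes a homeodomain factor needed for horizontal cells to form and known as well from bipolar cells, AII amacrine cells and Müller glia. It was highest in horizontal nuclei, with 688 CPM (565 to 831) from 109 UMIs in the Cre− and 999.8 CPM (822 to 1204) from 111 UMIs in the Tet tcKO library. Unlike the other 5 genes, it was at over 100 CPM in several further classes. Bipolar nuclei had 278 CPM (254 to 303) in the Cre− and 169.6 CPM (158 to 182) in the Tet tcKO library, and Müller glia 207 CPM (152 to 276) and 114 CPM (66.4 to 182). Rods and cones together had 155 CPM (146 to 164) and 136 CPM (128 to 145). The lowest levels were in RGCs, 39.8 CPM (29.5 to 52.7) and 31.4 CPM (24.3 to 39.9), below amacrine nuclei at 96.7 CPM (72.6 to 126) and 76.8 CPM (66.0 to 88.9) with no overlap of intervals. Through its breadth Prox1 had only 5.67% and 5.19% of its UMIs in horizontal nuclei. It overlaps the antisense gene Prox1os over 3794 bases, whose 4 and 5 UMIs in horizontal nuclei were few beside those of Prox1.

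Calb1 (chr4:15881155-15908085, plus strand, GRCm39) reached 726 CPM (599.7 to 872) from 115 UMIs in Cre− and 594 CPM (459.8 to 756) from 66 UMIs in Tet tcKO horizontal nuclei. RGCs with 66.7 CPM (53.0 to 82.7) and 47.8 CPM (39.0 to 58.0) and amacrine nuclei with 57.3 CPM (39.2 to 80.9) and 51.7 CPM (42.9 to 61.7) followed, and these classes did not differ beyond their intervals. Photoreceptors had 34.1 CPM (30.03 to 38.5) and 21.3 CPM (18.1 to 24.9). The horizontal level was 10.9-fold (8.14 to 14.6) above that of RGCs in the Cre− and 12.4-fold (8.98 to 17.1) in the Tet tcKO library.

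**Figure D1:**
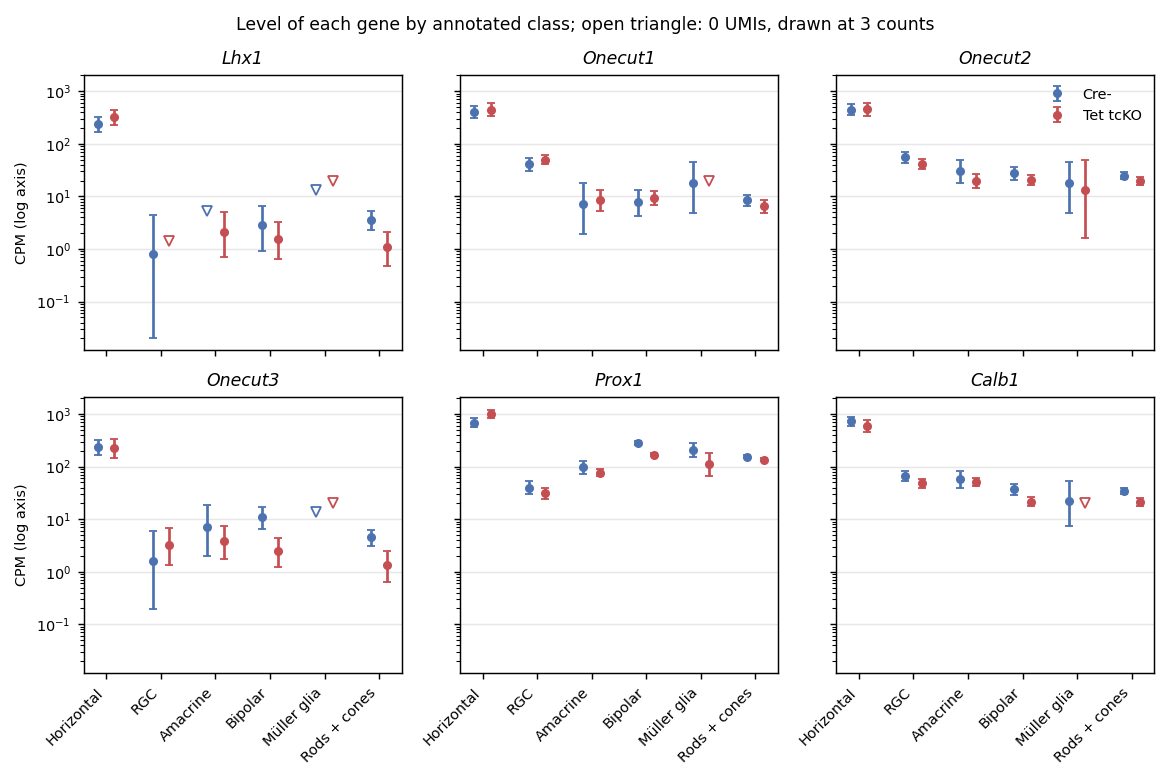
Level of each of the 6 genes in CPM (log axis) by annotated class, Cre− in blue and Tet tcKO in red, with exact 95% Poisson intervals as bars and open triangles at 3 counts where no UMI was found. Horizontal nuclei stand highest in every panel, RGCs come second for Onecut1 and Onecut2, and Prox1 is spread over most classes.

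The place of the 6 genes among all genes of the horizontal cluster differed. Ranked by fold over the other nuclei, Lhx1 was first in both libraries, Onecut3 was 5th in the Cre− and 9th in the Tet tcKO library, and Onecut1 12th and 16th. Calb1 ranked 26th and 31st and Onecut2 32nd and 33rd. Prox1 ranked 108th and 77th.

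Where each gene's UMIs were counted was therefore not set by its level in horizontal nuclei alone. A UMI need not show which cell made the transcript, since 5 rod genes also summed to 947 CPM in Cre− horizontal nuclei. How much RNA passed between nuclei was not tested. Rods and cones, the most numerous nuclei, held 61.1% of the Prox1 UMIs of the Cre− library and 47.2% of those of the Tet tcKO library. For Onecut2 they held 47.4% and 34.1%, more than the horizontal nuclei with 17.8% and 11.9%. For Onecut1 the largest share was in horizontal nuclei in the Cre− library, 32.2% or 65 UMIs beside 64 in rods and cones, and in RGCs in the Tet tcKO library, 39.9%. Calb1 had 20.7% and 12.2% of its UMIs in horizontal nuclei and Onecut3 38.5% and 40.3%.

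**Figure D2:**
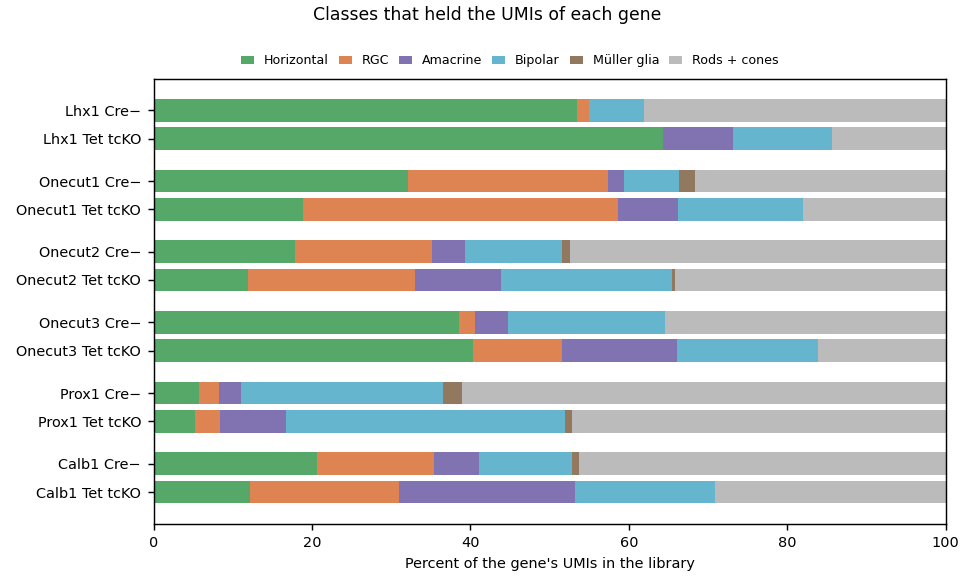
Percent of the UMIs of each gene held by each annotated class, with 1 bar per gene and library. The horizontal part (green) is largest for Lhx1, at 53.5% in Cre− and 64.3% in Tet tcKO, and smallest for Prox1, at 5.67% and 5.19%.

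Within broad classes the levels varied between the authors' clusters. Prox1 in clusters of at least 50 bipolar nuclei was at 214 to 414 CPM over the 3 Cre− clusters and at 30.7 to 431 CPM over the 6 Tet tcKO clusters. The highest of these, cluster 7 in the Cre− library (414 CPM, 354 to 482) and cluster 42 in the Tet tcKO library (431 CPM, 350 to 525), carried different numbers, and bipolar nuclei of both libraries fell into different clusters. For that reason no ratio is given for this class. Calb1 stood out in amacrine cluster 13, with 146 CPM (85.2 to 234) from 17 UMIs in the Cre− and 263 CPM (205 to 334) from 68 UMIs in the Tet tcKO library, while the other amacrine clusters were at 16.9 to 40.4 CPM. RGC cluster 2 had the highest level of an RGC cluster for Calb1, with 84.3 CPM (60.5 to 114) and 67.2 CPM (50.5 to 87.6), and also for Onecut1, with 51.4 and 68.4 CPM, and Onecut2, with 65.8 and 49.7 CPM, with intervals that overlapped those of at least 1 other RGC cluster in each library.

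**Figure D3:**
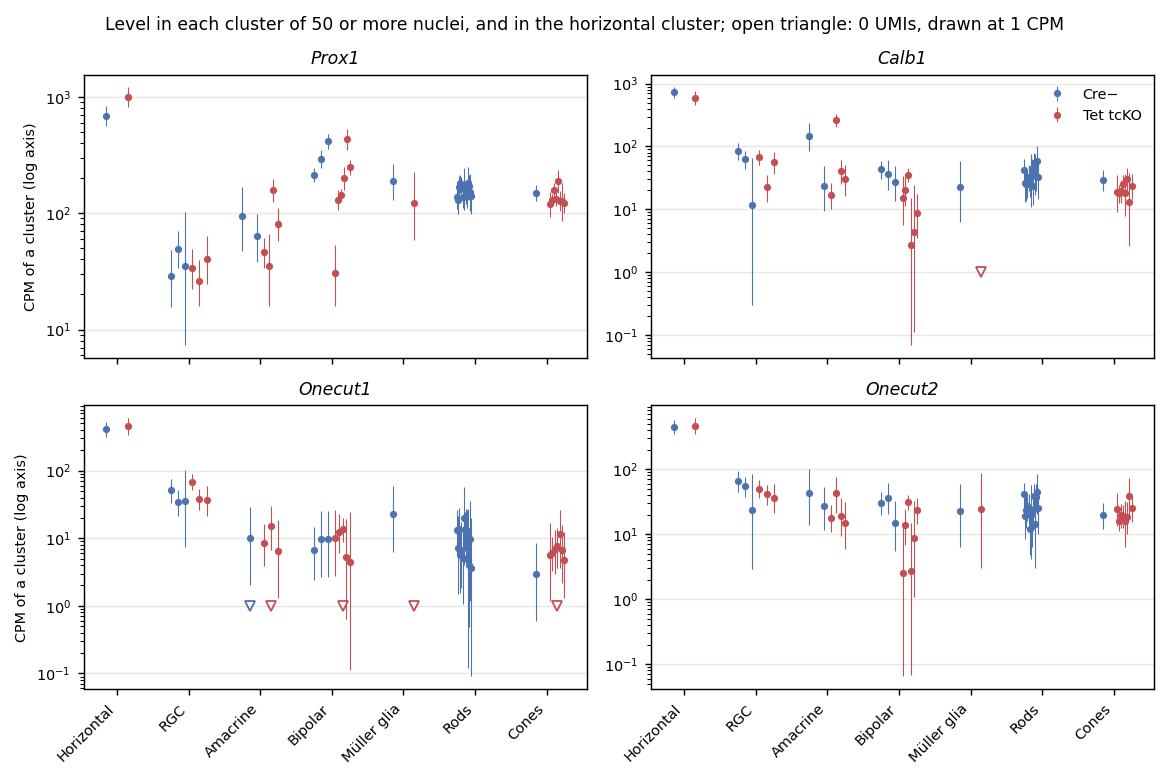
CPM (log axis) of Prox1, Calb1, Onecut1 and Onecut2 in each cluster of 50 or more nuclei and in the horizontal cluster, Cre− in blue and Tet tcKO in red, with exact 95% Poisson intervals as bars. Bipolar clusters spread from 30.7 to 431 CPM for Prox1, and amacrine cluster 13 stands above the other amacrine clusters for Calb1.

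The libraries were compared first over all nuclei. With 1 library per genotype an effect of TET loss cannot be told apart from other differences between the libraries. All 6 had a lower level in the Tet tcKO library. Among all 17952 genes at 1 CPM or more in a library 39% had a log2 ratio under 0 and the median was 0.13, whereas the median of the 6 was -0.50. Onecut3 had the lowest ratio, -1.16 (-1.64 to -0.68), with 96 UMIs (8.34 CPM) in the Cre− and 62 UMIs (3.74 CPM) in the Tet tcKO library. It was the 1 gene of the 6 past 2-fold, in a background of 10.4% of the 17952 genes, 4.56% lower and 5.84% higher in the Tet tcKO library. Lhx1 had 71 UMIs (6.17 CPM) and 56 UMIs (3.38 CPM), a ratio of -0.87 (-1.40 to -0.34). The other 4 genes reached 10 CPM in a library, and 0 of them passed 2-fold, where 5.66% of 11158 genes at that level did, 3.18% higher and 2.48% lower, and 35.9% had a ratio under 0. No test underlies any of these counts.

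Calb1 had 557 UMIs (48.4 CPM) and 543 UMIs (32.7 CPM), a ratio of -0.56 (-0.74 to -0.39). Onecut2 had 399 UMIs (34.7 CPM) and 428 UMIs (25.8 CPM), a ratio of -0.43 (-0.63 to -0.23). For Prox1, with 1921 UMIs (166.9 CPM) and 2139 UMIs (129 CPM), the ratio was -0.37 (-0.46 to -0.28). Onecut1 had 202 UMIs (17.5 CPM) and 266 UMIs (16.0 CPM), and its interval, -0.40 to 0.14 about -0.13, held 0.

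Within horizontal nuclei 0 of the 6 reached 2-fold, where 16.8% of 2104 genes at 100 CPM or more in this class did (10.1% higher and 6.65% lower), and their median ratio was 0.08 beside 0.12 for all those genes. Onecut1, Onecut2 and Onecut3 had ratios of 0.13 (-0.43 to 0.69), 0.03 (-0.51 to 0.57) and -0.05 (-0.85 to 0.72). Ratios under 0 were found for 2 of the 6 genes and for 43.2% of the 2104. The ratio of Lhx1 was 0.43 (-0.27 to 1.13) and that of Calb1 -0.29 (-0.75 to 0.16). These intervals hold 0 but are wide, and that of Lhx1 reaches past 2-fold. Prox1, at 688 CPM in the Cre− and 999.8 CPM in the Tet tcKO library, had a ratio of 0.54 (0.14 to 0.93). It was -0.16 when every gene was counted once per nucleus and divided by the sum of these counts over all genes. This divisor rises with the genes detected per nucleus, with medians of 905 in Cre− and 1405 in Tet tcKO horizontal nuclei. The share of nuclei with a UMI of Prox1 was itself higher in the Tet tcKO class, 32 of 37 against 54 of 90. The same setting also lowered Lhx1 to 0.10, Onecut2 to -0.40 and Onecut3 to -0.50, and its cause was not tested. Of the 37 Tet tcKO horizontal nuclei 17 had 3 or more UMIs of Prox1, the highest 13, against 12 of the 90 Cre− nuclei, the highest 8, in a library with fewer UMIs per nucleus.

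Markers of other classes were also counted in the horizontal nuclei. The 5 rod genes fixed as markers (Nrl, Nr2e3, Gnat1, Pde6a and Cnga1) summed to 947 CPM in the Cre− and 270.2 CPM in the Tet tcKO horizontal nuclei, and the 5 cone genes (Arr3, Opn1sw, Gnat2, Rxrg and Gngt2) to 423 and 874 CPM, with Rxrg at 0 in the Cre− class. The lists of bipolar cells (935 and 1279 CPM), amacrine cells (581 and 802 CPM) and RGCs (139 and 162 CPM) had higher sums in the Tet tcKO class, and those of Müller glia (512 and 279 CPM) and vessels (164 and 72.1 CPM) lower ones. Among the single genes Pou4f2 of RGCs, Gfap and Pax2 of astrocytes and Cldn5 and Rgs5 of vessels were at 0 in both. Their part in the ratios of the 6 genes was not tested. With the whole level of rods and cones subtracted from each library, the ratio of Prox1 was 0.69. The ratios of all 6 genes kept their sign, though the reported intervals of all but Prox1 held 0. This subtracts more than the rod genes show, since they summed to 3773 and 1459 CPM in rods and cones themselves.

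Outside the horizontal class Onecut1 had a ratio above 0 and the other genes below it. The share of all genes below 0 was not counted there. Lhx1 was at -1.26 (-2.14 to -0.42). Onecut3 was at -1.21 (-1.84 to -0.59), from 59 UMIs in the Cre− and 37 in the Tet tcKO library. Calb1 was at -0.43, Prox1 at -0.38 (-0.47 to -0.28) and Onecut2 at -0.34, while Onecut1 was at 0.12. In rods and cones pooled Lhx1 had 27 UMIs in the Cre− and 8 in the Tet tcKO library and Onecut3 34 and 10. Their ratios were -1.72 (-3.07 to -0.54) and -1.73 (-2.92 to -0.68). Prox1, with 1173 and 1010 UMIs there, had -0.18 (-0.31 to -0.06). The Cre− library had 5214 rod and 265 cone nuclei and the Tet tcKO library 6 and 3225, so these pooled classes differ in annotation. In RGCs the ratio was 0.26 for Onecut1, -0.41 for Onecut2 and -0.48 (-0.91 to -0.04) for Calb1. The RGC nuclei were mostly in cluster 8 in the Cre− library (394 nuclei) and in clusters 31 and 15 in the Tet tcKO library (273 and 217 nuclei), and Calb1 was at 11.8 to 84.3 CPM over the RGC clusters of the Cre− library.

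**Figure D4:**
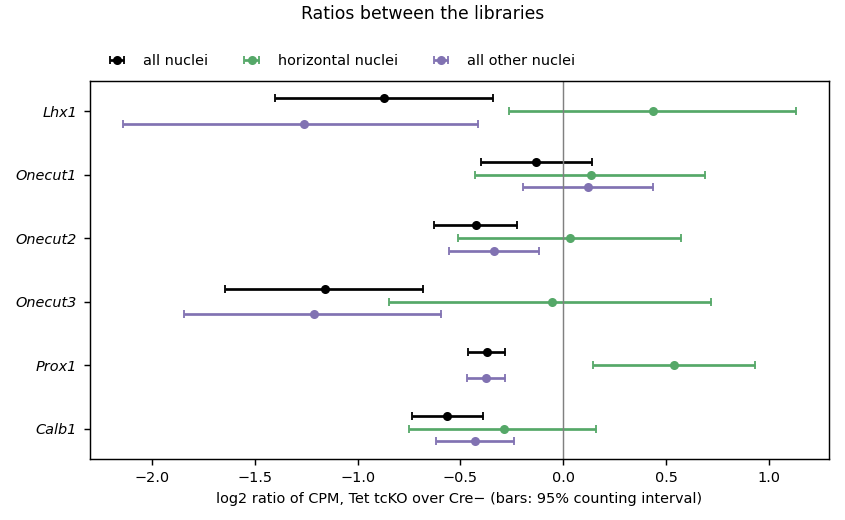
Log2 ratio of the CPM of each gene, Tet tcKO over Cre−, over all nuclei (black), within horizontal nuclei (green) and over all other nuclei (purple), with exact 95% counting intervals as bars. The green and purple points lie farthest apart for Lhx1, Onecut3 and Prox1, and the green interval holds 0 for every gene but Prox1.

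A lower CPM of a library can come from a smaller share of its UMIs in a class or from a lower CPM within that class, so the difference was divided into a part from the class shares of UMIs and a part from the CPM within classes, with rods and cones as 1 class. The level part is relative to all UMIs of a class and is not a number of transcripts per nucleus. For Lhx1 the difference was -2.79 CPM, of which -2.12 CPM came from class shares and -0.669 CPM from levels. The share of horizontal nuclei gave -1.99 CPM of this difference, and the Lhx1 level within them gave 0.861 CPM. The sum of both horizontal parts was -1.13 CPM, and the other classes gave -1.66 CPM. For Onecut1 the class part was -2.0 CPM of a difference of -1.52 CPM, and the level part 0.484 CPM. For the other 4 genes the level part was the larger one. It was -34.0 of -38.0 CPM for Prox1, -14.7 of -15.7 CPM for Calb1, -6.96 of -8.87 CPM for Onecut2 and -3.69 of -4.60 CPM for Onecut3. Horizontal nuclei gave 3.18 CPM of the level part for Prox1, -1.35 for Calb1, 0.111 for Onecut2 and -0.0873 for Onecut3. The rest came from other classes. Among these the pooled rods and cones differ in annotation between the libraries, and bipolar nuclei fell into different clusters. Bipolar nuclei held 15.3% of the Cre− and 26.8% of the Tet tcKO UMIs, with Prox1 at 278 and 169.6 CPM. The part of cluster make-up within a class in the level parts was not tested. With the Cre− class shares in both libraries the ratio of Lhx1 would be -0.16 and that of Onecut1 0.01, and Onecut3, at -0.77, would no longer pass 2-fold. Calb1 would stay at -0.55, Onecut2 at -0.30 and Prox1 at -0.27.

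Detection in single nuclei was compared after each nucleus had been thinned to 500 UMIs, which left out none. Prox1 was found in 30% (20.8 to 40.6) of Cre− and 35.1% (20.2 to 52.5) of Tet tcKO horizontal nuclei and Calb1 in 27.8% (18.8 to 38.2) and 27.0% (13.8 to 44.1). Onecut2 was found in 21.1% and 21.6%, Onecut1 in 15.6% and 21.6%, Lhx1 in 12.2% and 13.5%, and Onecut3 in 12.2% and 8.11%. The intervals of both libraries overlapped for every gene. As a background, rods and cones at the same depth had Lhx1 in 0.292% and 0.0619%, Onecut1 in 0.475% and 0.279%, Onecut2 in 1.33% and 1.02%, Onecut3 in 0.310% and 0.0619%, Calb1 in 1.83% and 1.21% and Prox1 in 7.26% and 6.04%. Prox1 was also found in 15.6% of Cre− and 7.22% of Tet tcKO bipolar nuclei.

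At that depth most horizontal nuclei showed few of the 6 genes together. In the Cre− library 24 of 90 nuclei had none of them, 36 had 1, 20 had 2, 9 had 3 and 1 had 4. In the Tet tcKO library 11 of 37 had none, 11 had 1, 11 had 2, 2 had 3 and 2 had 4. The mean was 1.19 and 1.27 genes per horizontal nucleus, against 0.115 and 0.0867 in rods and cones. With all UMIs, 51 of 90 Cre− and 30 of 37 Tet tcKO horizontal nuclei had at least 3 of the 6, and 3 and 0 had none. A single horizontal nucleus held at most 12 UMIs of Calb1 in the Cre− and 5 in the Tet tcKO library, 4 and 5 of Onecut1, 8 and 6 of Onecut2, 3 and 3 of Onecut3 and 2 and 4 of Lhx1. Without the highest nucleus of each gene in each library, the ratios of all 6 within horizontal nuclei stayed within their intervals. The unthinned difference between the libraries goes along with the median depths of 1502 and 2492 UMIs. Prox1 and Calb1 were the pair found together most often, in 36 Cre− and 26 Tet tcKO nuclei.

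**Figure D5:**
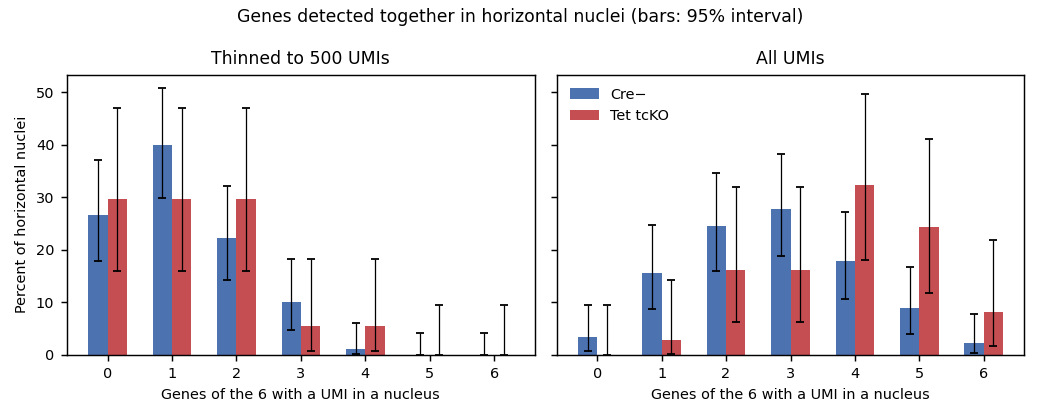
Percent of horizontal nuclei (90 Cre−, blue, and 37 Tet tcKO, red) by how many of the 6 genes had a UMI, after thinning to 500 UMIs (left) and with all UMIs (right), with exact 95% intervals as bars. After thinning both libraries peak at 0 to 2 genes with overlapping intervals, and with all UMIs the Tet tcKO nuclei lie further right.

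Outside the class, 31 Cre− and 35 Tet tcKO nuclei also had at least 3 of the 6 genes. They were deep, with medians of 6080 and 5059 UMIs, and most often bipolar, 14 and 16 of them. The 7 independent horizontal genes summed to 1044 and 1004 CPM in these nuclei, closer to the 663 and 604 CPM of the remaining non-horizontal nuclei than to the 8281 and 7233 CPM of the horizontal class.

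The genes whose pattern was most like that of each member were found over 13 populations of a class in a library, among 11050 genes, by Pearson's r of log2(CPM + 10). The populations share libraries and depth, so these values are descriptions. Lhx1 was followed most closely by Myzap (r = 0.99), Lhx1os (0.99), whose counts may share reads with Lhx1, and Wnk4 (0.99). Onecut3 was followed by Lhx1 (0.99), Myzap and Pcsk6. Onecut1 and Onecut2 were each among the 3 genes nearest to the other (0.97), beside Rtn4r for both, Ret for Onecut1 and Fam124a for Onecut2. Calb1 was nearest to Fry (0.98), Nebl and Myo16. Prox1 had the loosest neighbours, Cacna1h (0.94), Arhgef26 and BC034090, and its r with Onecut1 was 0.58.

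Genes that act before or beside the 6 were described by lists. Of 11 factors of horizontal and amacrine fate 9 reached 10 CPM over all nuclei, with a median ratio of 0.56 beside 0.15 for all 11158 genes at that level. The 4 with the most UMIs were Rorb (0.38), Pax6 (0.58), Meis2 (0.56) and Tfap2b (0.24). Amacrine nuclei held 4.85% of the Cre− and 14.1% of the Tet tcKO UMIs. The part of class shares in these ratios was not tested. One of the 9 was past 2-fold, Sall3, a zinc finger factor, at 1.48, where 3.18% of all genes were 2-fold or more higher. Foxn4 and Ptf1a, which act in progenitors and precursors of horizontal cells, were nearly absent at this age, with 3 and 3 UMIs and 1 and 0 UMIs. In horizontal nuclei 4 of the 11 reached 100 CPM with a median of 0.35. Rorb, a nuclear receptor of the retinoid-related family, was the 1 past 2-fold, from 777 CPM in the Cre− to 1567 CPM in the Tet tcKO library (1.01, 0.67 to 1.36), where 10.1% of all genes in the class were 2-fold or more higher. Pax6 had 0.55 (0.08 to 1.02) there and Tfap2b 0.07 (-0.32 to 0.47).

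Of 15 genes of horizontal cell function 13 reached 10 CPM over all nuclei with a median of 0.04. Past 2-fold were 1 higher (Gad2, 1.23) and 2 lower (Nefl, -1.29, and Slc4a3, -1.25). Of all genes 3.18% were higher and 2.48% lower by as much. Gad2 is also on the amacrine and Nefl on the RGC marker list, and the part of class shares in these ratios was not tested either. The anion exchanger Slc4a3 had 4921 CPM in the horizontal nuclei of the control and 3143 CPM in those of the mutant (-0.65, -0.83 to -0.46), and its ratio was -0.94 in amacrine nuclei and -1.19 in RGCs, classes whose nuclei lay mostly in different clusters in each library (amacrine cluster 27 in the Cre− and 12, 24 and 23 in the Tet tcKO library). The AMPA receptor subunit genes Gria4 and Gria2 had 0.15 (-0.14 to 0.45) and -0.30 (-0.68 to 0.08) in horizontal nuclei. In that class 7 of the 15 reached 100 CPM with a median of 0.15, and Megf10, a receptor that spaces horizontal cells, was the 1 past 2-fold (1.14, -0.04 to 2.38) from 11 and 17 UMIs, where 10.1% of all genes in the class were as much higher.

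Other EF-hand calcium binders were set beside Calb1. All 6 reached 10 CPM over all nuclei with a median of -0.28, and Pvalb, at -1.65 with 137 and 63 UMIs, was the 1 past 2-fold, where 2.48% of all genes were as much lower. Calb2, the gene of calretinin, had 690 UMIs (59.9 CPM) and 649 UMIs (39.1 CPM), a ratio of -0.62 (-0.77 to -0.46), close to that of Calb1, but only 3 and 2 UMIs in horizontal nuclei.

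Of 13 relatives of the factors, LIM and cut or Satb homeodomain genes and LIM partners among them, 10 reached 10 CPM over all nuclei, with a median of 0.34 beside 0.15 for all genes and 0 past 2-fold, where 5.66% of all genes were. Lhx5, the closest relative of Lhx1, had 0 UMIs in horizontal nuclei of both libraries, which allows up to 18.9 CPM in the Cre− and 27.0 CPM in the Tet tcKO class. Cux2 and Cux1, cut-domain factors like the Onecut genes, were at 467 and 387 CPM and at 278 and 189 CPM in horizontal nuclei, with ratios of -0.27 (-0.85 to 0.29) and -0.56 (-1.38 to 0.23).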

How the data were processed

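Nuclei of whole retinas were captured by PIPseq and sequenced from the 3′ end. Reads were processed by the authors with pipseeker 3.3.0 on GRCm39, ambient RNA was removed with CellBender, and nuclei were filtered and annotated in Monocle3. The sources used here name neither the gene annotation version nor the strand setting. The deposited matrices hold UMI counts per gene and nucleus. The deposited cell tables give totals as counts, the authors' mitochondrial percent and a size factor, which is a ratio and was not used. The deposited gene table gives the authors' mean signal per genotype and the number of nuclei with each gene.

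UMIs were summed per library and class and divided by their total (CPM). Counts received exact Poisson intervals, ratios conditional intervals and shares Clopper-Pearson intervals, at 95%, which cover counting error only. Counts of 0 were set to 3 for a bound, and pairs of counts up to 3 received no ratio. No test was made, since each genotype had 1 library. The model of the study over single nuclei was not repeated. Differences of 2-fold were counted with a minimum of 10 CPM in a library (1 CPM where stated, 100 CPM in horizontal nuclei). The doublet caller scrublet marked 0.0408% of Cre− and 0% of Tet tcKO nuclei and so did not work, and doublets were not removed. As an alternative the 5% of nuclei with the highest scores were left out, 12 of them horizontal in the Cre− and 0 in the Tet tcKO library. Steps were tested on simulated data. The 6 genes and all lists were chosen with earlier results of these data known. Named from the lists were genes with the most UMIs and those past 2-fold, and some of the former are not reported here. Foxn4, Ptf1a, Calb2 and Lhx5 were named after their values were seen. Positions are from GENCODE on GRCm39, where 31681 of 32227 gene IDs matched. The software was Python 3.11.15 (scanpy 1.11.5, pandas 2.3.3, scipy 1.17.1, numpy 2.4.6), and TMM factors in R 4.3.3 with edgeR 4.0.16. Alternatives were other scalings, counting each gene once per nucleus, deeper nuclei only, leaving out each gene's highest nucleus, subtraction of the photoreceptor level, equal class shares, other CPM minimums and other thinning depths.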

Additional observations from a re-analysis of the deposited data

Results flagged for a closer look

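Prox1 had a log2 ratio of 0.54 within horizontal nuclei and of -0.38 over all other nuclei, and the counting intervals lay on opposite sides of 0. The difference between these ratios was not tested. The first was -0.16 when every gene was counted once per nucleus, relative to the sum of these counts over all genes.

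The authors' gene table counts more nuclei with each gene than the matrices hold. It lists 120 nuclei with Lhx1, 19 more than the 101 of both matrices. For Onecut1 it lists 414, 40 more than 374, and for Onecut2 787, 86 more than 701. For Onecut3 it lists 142, 16 more than 126. For Prox1 it lists 3630, 549 more than 3081, and for Calb1 987, 125 more than 862. The genotype and class of the additional nuclei are not given in the sources used here.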

How the results depend on the processing

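Of 42 alternative ratios over all nuclei 38 stayed within the counting interval of the reported ratio, and of 42 within horizontal nuclei 41 did. Where an interval held 0 this allowed a change of sign. In horizontal nuclei Onecut1 ranged from -0.09 to 0.14 and Onecut2 from -0.40 to 0.09. The exception in horizontal nuclei was Prox1, with a range over all alternatives of -0.16 to 0.69. It turned from 0.54 to -0.16 when a nucleus counted at most once per gene, relative to the sum of these counts over all genes. Over all nuclei Lhx1 was at -0.16 and Prox1 at -0.27 with the Cre− class shares in both libraries, and Prox1 was at -0.48 with TMM and at -0.48 with median-of-ratios factors. These factors lowered all ratios over all nuclei by -0.10 and -0.11 (log2), and the 355 genes higher and 277 lower by 2-fold became 276 and 356 with TMM and 275 and 356 with median-of-ratios factors. The 632 genes past 2-fold at 10 CPM were 1868 at 1 CPM and 262 at 50 CPM. Without thinning, the shares of Cre− horizontal nuclei with a UMI were 34.4% for Lhx1, 41.1% for Onecut1, 48.9% for Onecut2, 33.3% for Onecut3, 60% for Prox1 and 58.9% for Calb1, and those of Tet tcKO nuclei 59.5%, 62.2%, 59.5%, 37.8%, 86.5% and 78.4%. Thinned to 1000 UMIs, which left out 24 of 90 and 1 of 37 nuclei, the Cre− shares were 18.2% for Lhx1, 31.8% for Onecut1, 34.8% for Onecut2, 22.7% for Onecut3, 45.5% for Prox1 and 47.0% for Calb1, and the Tet tcKO shares 38.9% for Lhx1, 33.3% for Onecut1, 25% for Onecut2, 25% for Onecut3, 58.3% for Prox1 and 47.2% for Calb1. A greater depth raises the shares of a library by construction, but at 1000 UMIs both libraries had the same depth. Lhx1, at 12.2% and 13.5% when thinned to 500 UMIs, and Onecut2, at 21.1% and 21.6%, stood farther apart at 1000 UMIs, in opposite directions. Of 24 alternative shares in horizontal nuclei 21 lay outside the interval of the reported share. No paired analysis was possible because each genotype had 1 library. The main limits are the 37 Tet tcKO horizontal nuclei, whose counts leave a 2-fold difference of Lhx1 within its interval, and the absence of replicate libraries.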
